A study of Mus musculus with 5 samples.

Results

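Srf, the gene of serum response factor, was followed together with 9 genes of the actin cytoskeleton in the hippocampus of mice after seizures provoked by kainic acid. The 9 were the tropomyosin genes Tpm1, Tpm2, Tpm3 and Tpm4, the cytoplasmic actin genes Actb and Actg1, and the genes of the actin-binding proteins vinculin (Vcl), filamin A (Flna) and transgelin 2 (Tagln2). The 10 genes were chosen by symbol among the 55385 genes counted in each library, and none was chosen by a measured threshold. All 10 were among the 19768 genes that passed the filter on low counts, which was made over all conditions.

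Total RNA of hippocampi from male C57/bl6 mice aged 3 months was sequenced. The control was 1 library from untreated mice, and the other libraries came from mice given kainic acid (20 mg/kg, intraperitoneal) and sacrificed 1 h (1 library), 4 h (2 libraries, called mouse 1 and mouse 2) or 8 h (1 library) after seizure onset. Kainic acid is an agonist of a class of glutamate receptors, and the seizures it provokes activate hippocampal neurons strongly and together. Whether a library held RNA of a single mouse is not given in the labels or methods, and only animals that reached a severe seizure stage were used. Because the control mice received no injection, the seizure, the drug and the injection cannot be told apart. Each comparison with the control rests on 1 control library, the comparisons share it, and only the pair after 4 h gives a spread.

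SRF is a transcription factor that binds a short AT-rich element, the CArG box, and works with cofactors of 2 families. With the ternary complex factors (TCF), which are ETS proteins activated by MAP kinases, it drives immediate early genes such as Fos and Egr1. With the myocardin-related transcription factors (MRTF), which are held in the cytoplasm by monomeric actin, it drives genes of the cytoskeleton, among them actins, vinculin, filamin and Srf itself. Tropomyosins are coiled-coil proteins that lie along the actin filament and decide which other proteins bind it. Each tropomyosin gene yields several isoforms by alternative promoters and exons, and counts per gene as used here do not separate them.

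The promoter windows of the genes are shown for their CArG boxes, the element SRF is known to bind. The RefSeq promoter table (GRCm38.p6) holds windows from 250 bases before to 50 bases after the start for 9 of the 10 genes. The CArG box was searched as CC, a run of A or T, and GG on both strands, where it reads as a CArG box on either, and was found in the windows of Srf, Actg1 and Vcl. It was present in 1.63% of the 32851 windows of all genes. The windows with the box in capitals, each read 5′ to 3′ on the strand of the gene, were the following 4.
Srf, distal box, chr17:46556225-46556254, minus strand, 82 bases before the start: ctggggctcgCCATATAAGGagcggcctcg
Srf, proximal box, chr17:46556205-46556234, minus strand, 62 bases before the start: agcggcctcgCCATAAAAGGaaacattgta
Actg1, chr11:120348566-120348595, minus strand, 90 bases before the start: ggaaagatcgCCATATATGGacatgttctg
Vcl, chr14:20929161-20929190, plus strand, 227 bases before the start: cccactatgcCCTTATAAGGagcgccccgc

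The 2 boxes of Srf lie beside each other and differ in their AT run. The ETS core CCGGAA, the element to which ternary complex factors bind beside SRF, was searched on both strands and found in the window of Srf alone among the 9, in capitals here. It overlaps no CArG box, and 14.9% of all windows hold it.
Srf, ETS core, chr17:46556269-46556294, minus strand, 122 bases before the start: agcctaggtgCCGGAAgcgcggacca
The cyclic AMP element TGACGTCA, searched on both strands, was in none of the 9 genes' windows and in 1.79% of all windows. No exon of the GENCODE M21 annotation lies under the printed windows. These matches describe letters in a window of 250 bases before the start and do not show that a factor bound there.

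The libraries held between 16612225 and 19109204 reads counted on genes, and the 10 genes took between 0.262% and 0.351% of them. Levels are given as normalized CPM, the counts scaled to a common library size by the TMM method of edgeR, and intervals are exact 95% intervals of counting error alone. The defining markers of hippocampal neurons were present in every library. Mouse 1 after 4 h stood apart in tissue content. The 3 choroid plexus markers Ttr, Kl and Folr1 summed to 26.0 normalized CPM there. Their sum was 3894 in the control, 1642 after 1 h, 4142 in mouse 2 and 3010 after 8 h. The 1 h library thus also held less of them than the control. The share of deposited reads on no gene was also highest in mouse 1, at 33.1%, against 24.7% to 30.9% elsewhere. Levels or ratios of the 10 genes after 4 h are therefore given for each mouse. Fitted values, medians and counts of genes after 4 h rest on both mice unless a mouse is named.

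At 1 h all 10 genes stood above the control in the fitted values, with a median log2 fold change of 0.43 where the median of all tested genes was -0.01. None passed an adjusted p of 0.05 (edgeR quasi-likelihood test, Benjamini-Hochberg adjustment over all genes), and neither did any other gene, which is 0% of those tested. At an unadjusted p under 0.05, Srf, Vcl and Flna were higher, 3 of 10 against 2.1% of all genes. The same test gave 478 genes at that unadjusted threshold, DESeq2 called 56 genes after adjustment, and neither DESeq2 nor limma-voom called any of the 10. A fitted fold of at least 1.5 was reached by Srf, Tpm4, Vcl and Flna, 4 of 10 against 9.65% of all genes.

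At 4 h all 10 genes again stood above the control, with a median log2 fold change of 0.59 beside 0.01 for all genes. The median of the 10 was 0.34 without mouse 1 and 0.79 without mouse 2. None was called in edgeR after adjustment. The single gene called, 0.00506% of those tested, was the gene labelled ETV3L, which is named here after its value was seen. Tpm1, Tpm4 and Flna were higher at an unadjusted p under 0.05, 3 of 10 against 7.21% of all genes, and Tpm4 was called by DESeq2 (adjusted p = 0.0245), which called 238 genes in all, but not by limma-voom, which called 0. Tpm1, Tpm4, Vcl, Flna and Tagln2 reached a fitted fold of 1.5, 5 of 10 against 16.3%. Counted with mouse 2 as the only 4 h library, an alternative chosen after seeing the data, the fold was reached by 3 genes, Tpm1, Tpm4 and Flna, against 12.7% of all genes, and with mouse 1 alone by 6 genes against 20.1%.

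At 8 h the values lay on both sides of the control, with 5 genes above, 5 below and a median log2 fold change of 0.03. No gene was called after adjustment among the 10 or among all genes (0%), none of the 10 passed the unadjusted threshold upwards against 2.39% of all genes, and none reached a fitted fold of 1.5 against 12.7%. edgeR gave 892 genes at an unadjusted p under 0.05, DESeq2 called 33 and limma-voom 0 after adjustment, none of them among the 10. Tagln2 had the highest of the 10 values after 8 h, a log2 fold change of 0.58. The fitted fold of Tagln2 passed 1.5 under 4 alternative settings, as its value lies at that limit.

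**Figure D1:**
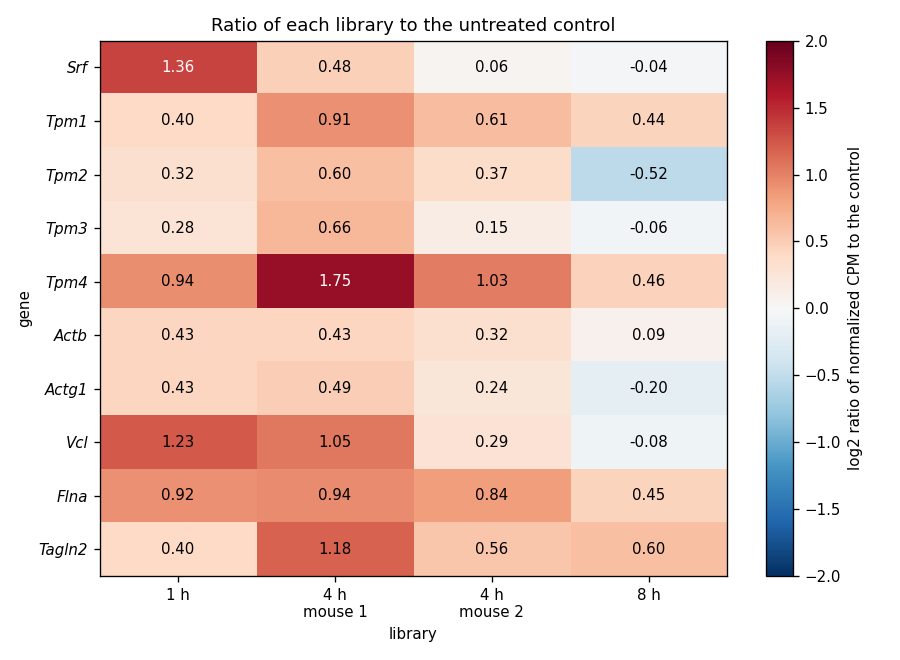
Log2 ratio of normalized CPM to the untreated control (colour and printed value) for the 10 genes (rows) in the 4 kainic acid libraries (columns). Srf (1.36) and Vcl (1.23) have their highest ratio after 1 h and Tpm4 in mouse 1 after 4 h (1.75), while after 8 h 5 of the 10 lie below 0.

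Srf (chr17:46548329-46556175, minus strand, GRCm38) was highest after 1 h. Its level was 38.8 normalized CPM in the control, 99.5 after 1 h, 54.1 and 40.4 in mouse 1 and mouse 2 after 4 h, and 37.8 after 8 h. The 1 h library stood at 2.57 times the control (2.36 to 2.80), whereas mouse 2 after 4 h (1.04, 0.941 to 1.15) and the 8 h library (0.975, 0.878 to 1.08) could not be separated from the control at this depth. The fitted log2 fold change after 1 h was 1.36 ± 0.28 (SE; unadjusted p = 0.00353, adjusted p = 1 in edgeR), which ranked 433 from the highest among the 19768 genes.

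From 1 h to 4 h the level of Srf was lower in both mice, at 0.544 times (0.501 to 0.589) and 0.406 times (0.373 to 0.442) the 1 h value. The fitted difference was -1.07 ± 0.23 on the log2 scale (SE; unadjusted p = 0.00427, adjusted p = 0.469 in edgeR). Srf was the only one of the 10 genes lower after 4 h than after 1 h at an unadjusted p under 0.05, against 3.34% of all genes, and the single gene called after adjustment (0.00506%) was again the gene labelled ETV3L. In that comparison 5 of the 10 values were above 0 and 5 below, and Tpm3 changed side without mouse 1 and Actb, Actg1 and Flna without mouse 2.

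Of the 6 genes of SRF cofactors listed, Myocd was below the filter, 5 were tested, and none passed an adjusted p of 0.05 at any time. Their summed level was 340 normalized CPM in the control, 325 after 1 h, 334 and 311 after 4 h and 323 after 8 h. Mrtfb, the most abundant, stood at 218 in the control and between 176 and 202 afterwards, and Mrtfa at 44.5 in the control, 39.7 after 1 h, 55.3 and 63.3 after 4 h and 44.9 after 8 h. Both encode actin-sensing MRTF proteins. At 4 h the TCF gene Elk4 was higher by 0.68 on the log2 scale (unadjusted p = 0.0442) and Elk1 stood at -0.71 (unadjusted p = 0.0141) in edgeR.

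Among genes compared over the 4 kainic acid libraries by their log2 ratios to the control, those nearest to Srf of 9976 genes with a mean of at least 10 normalized CPM were Dpm1 (root mean square difference 0.12), Txndc11 (0.13), Irf2bp2 (0.17), Atg101 (0.18) and Zfp36l2 (0.19). The points share 1 control library.

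The tropomyosin genes spanned a wide range of levels, and each was highest in mouse 1 after 4 h. Summed over the 4 genes, the level was 275 normalized CPM in the control, 364 after 1 h, 515 and 381 after 4 h and 324 after 8 h. Tpm4 had the largest ratio to the control of the 4 genes in the 1 h library and in both mice after 4 h.

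Tpm4 (chr8:72134975-72153142, plus strand), which encodes a low-molecular-weight tropomyosin found outside muscle, stood at 24.0 normalized CPM in the control and 45.9 after 1 h. It reached 80.5 and 48.8 in the 2 mice after 4 h and 33.0 after 8 h, so that all 4 kainic acid libraries were above the control. The ratios to the control were 1.91 (1.71 to 2.15) after 1 h, 3.36 (3.02 to 3.74) and 2.04 (1.82 to 2.28) after 4 h, and 1.38 (1.22 to 1.56) after 8 h. The nearer 4 h library was further above the control than the pair differed. The fitted log2 fold change was 1.43 ± 0.35 after 4 h (SE; unadjusted p = 0.00788, adjusted p = 0.316 in edgeR), 1.02 without mouse 1 and 1.74 without mouse 2.

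Between 4 h and 8 h Tpm4 was lower, at 0.41 times the value of mouse 1 and 0.676 times that of mouse 2, and the fitted difference was -0.97 ± 0.34 (unadjusted p = 0.0325, adjusted p = 0.544 in edgeR). Its nearest genes by the same measure of likeness were Jmjd1c (0.11), Eprs (0.13), Rcan1 (0.16), Ina (0.17) and Ppp1r3c (0.17).

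Tpm1 (chr9:67022590-67049406, minus strand) has 21 annotated transcripts, the most of the 4 genes. Relative to the control it was at 1.32 times (1.26 to 1.40) after 1 h, 1.88 (1.79 to 1.97) and 1.53 (1.45 to 1.61) after 4 h, and 1.36 (1.29 to 1.43) after 8 h. All 4 intervals lay above 1. Without mouse 1 the fitted 4 h value was 0.61 on the log2 scale and without mouse 2 it was 0.91. The genes nearest to Tpm1 were Litaf (0.07), Crhbp (0.08), Fstl4 (0.09), Cdo1 (0.09) and Taf10 (0.09).

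Tpm3 (chr3:90072649-90100902, plus strand), which like Tpm1 yields short and long isoforms, stood at 120 normalized CPM in the control, 146 after 1 h, 191 and 134 after 4 h and 116 after 8 h. Mouse 1 was at 1.59 times the control and mouse 2 at 1.11 times, and the pair differed by more than mouse 2 differed from the control. The fitted log2 fold change after 4 h was 0.43 ± 0.25 (SE; adjusted p = 0.56 in edgeR), and the difference from 1 h to 4 h, 0.15, turned to -0.13 without mouse 1. Tpm2 (chr4:43514711-43523765, minus strand), best known from muscle, was counted least, with 49 counts in the control, 54 after 1 h, 63 and 60 after 4 h and 30 after 8 h. Only the interval of mouse 1 (1.03 to 2.26 times the control) excluded 1, and a difference in the other libraries was not detectable at this depth.

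The composition of the tropomyosin reads differed accordingly. Tpm4 made up 8.73% (7.99 to 9.51, exact binomial) of them in the control, 12.6% after 1 h, 15.6% and 12.8% after 4 h and 10.2% after 8 h. Tpm3 made up 43.9% in the control, 40.1% after 1 h, 37.1% and 35.1% after 4 h and 35.7% after 8 h, so that its share was lower in each kainic acid library. Tpm1 held between 46.5% and 46.6% in the control, after 1 h and in mouse 1, and 51.2% and 53.6% in mouse 2 and after 8 h. Divided by exon length, Tpm4 took 21.2% in the control and 34.4% in mouse 1, where its level per kb (36.5, 34.6 to 38.5) and that of Tpm1 (37.0, 35.8 to 38.1) overlapped. In mouse 2 Tpm4 took 29.4%, and its level per kb (22.2, 20.8 to 23.6) lay below that of Tpm1 (30.1, 29.1 to 31.1). The exon length is the union over all annotated transcripts.

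**Figure D2:**
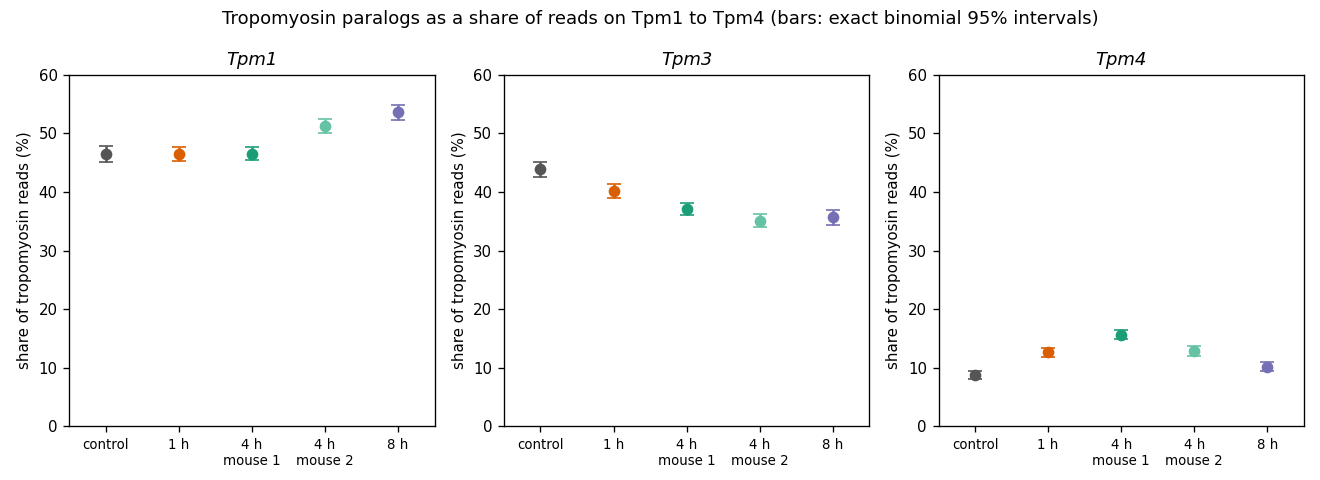
Share of reads on Tpm1 to Tpm4 (%, vertical axis) held by Tpm1, Tpm3 and Tpm4 in each of the 5 libraries, with exact binomial 95% intervals that cover counting error only. Tpm4 goes from 8.73% in the control to 15.6% in mouse 1 after 4 h, and Tpm3 is below its control share of 43.9% in each kainic acid library.

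The cytoplasmic actins, which form most filaments of non-muscle cells, were the most abundant of the 10 genes and had small ratios to the control. Actb (chr5:142903115-142906754, minus strand) stood at 1761 normalized CPM in the control, 2365 after 1 h, 2370 and 2202 after 4 h and 1871 after 8 h. Actg1 (chr11:120345690-120348542, minus strand) stood at 259 in the control, 349 after 1 h, 364 and 306 after 4 h and 226 after 8 h. Both were therefore above the control after 1 h and in both mice after 4 h, and only Actg1 was below it after 8 h.

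Actb is often taken as a reference gene. Its fitted log2 fold change was 0.43 ± 0.19 after 1 h (SE; unadjusted p = 0.0752), 0.38 ± 0.17 after 4 h (unadjusted p = 0.0735) and 0.09 ± 0.19 after 8 h (unadjusted p = 0.67), with adjusted p = 1, 0.469 and 1 in edgeR. The ratio of its 8 h library to the control was 1.06 (1.05 to 1.08). The values of Actg1 were 0.43 ± 0.21 after 1 h and 0.37 ± 0.18 after 4 h, close to those of Actb, and -0.20 ± 0.21 after 8 h. From 4 h to 8 h Actg1 was lower by 0.57 on the log2 scale (unadjusted p = 0.0249, adjusted p = 0.532 in edgeR).

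As a share of the reads on both actins, Actb held 87.2% in the control, 87.1% after 1 h, 86.7% and 87.8% after 4 h and 89.2% after 8 h (88.9 to 89.5). How far reads can separate them follows from their sequences, of which the first 30 coding bases are shown, with the 8 bases at which they differ in capitals. Both lie in exon 2 and on the minus strand of GRCm38.
Actb, chr5:142905657-142905686: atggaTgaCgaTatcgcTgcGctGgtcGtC
Actg1, chr11:120348062-120348091: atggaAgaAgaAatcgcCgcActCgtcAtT
Over the 1125 coding bases 997 were identical (88.6%). Of all stretches of 50 bases in the transcripts of Actg1, 37.4% also occurred in transcripts of another gene, and for Actb the share was 9.12%. The sequenced reads were paired and longer than 50 bases, so these are not shares of reads that could not be placed. These shares count any other gene, not the other actin alone. They involve 23 genes for Actg1, mainly Gm12715, Gm8399, Actg-ps1 and Gm16385, and 18 for Actb, with Actg1 among the main ones. Reads aligned more than once were left out of the deposited counts, so the level of Actg1 against Actb is uncertain. The share was 23.2% for Tpm3, whose level against the other tropomyosins is uncertain for the same reason. It was 15.7% for Tpm4, part of it shared with Gm26586, which overlaps Tpm4 at its own locus. Small RNA genes cover another 5.53% of the Actg1 exons on its own strand.

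Of the actin-binding proteins, Vcl (chr14:20929398-21033676, plus strand) was, like Srf, highest in the 1 h library. Vinculin links actin filaments to cell adhesions. Vcl stood at 52.0 normalized CPM in the control, 122 after 1 h, 108 and 63.5 after 4 h and 49.2 after 8 h. The 1 h library was at 2.35 times the control (2.18 to 2.53), mouse 1 at 2.07 (1.92 to 2.24), mouse 2 at 1.22 (1.12 to 1.33) and the 8 h library at 0.946 (0.863 to 1.04). The fitted values were 1.23 ± 0.38 after 1 h (unadjusted p = 0.0208, adjusted p = 1) and 0.72 ± 0.34 after 4 h (adjusted p = 0.481) in edgeR. Of the 10 genes Vcl had the largest ratio between the mice after 4 h, 1.69 (1.57 to 1.82), and its 4 h value was 0.29 without mouse 1 and 1.05 without mouse 2.

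Part of Vcl overlaps another gene. The opposite-strand gene Ap3m1 lies under 25.5% of the Vcl exon bases, and whether the counting used the strand is not given in the sources used here. Ap3m1 stood at 55.8 normalized CPM in the control, 52.4 after 1 h, 44.4 and 52.0 after 4 h and 54.8 after 8 h, and its part in the counts of Vcl was not tested. Tpm4 shares 6.08% of its exon bases with Gm26586, which had between 0 and 3 counts.

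Flna (chrX:74223461-74249820, minus strand) had the smallest ratio between the mice of the 10 genes. Filamin A crosslinks actin filaments and anchors membrane proteins to them. Flna stood at 126 normalized CPM in the control, 237.5 after 1 h, 241 and 225 after 4 h and 172 after 8 h. The ratios were 1.89 (1.80 to 1.99), 1.92 (1.83 to 2.02), 1.79 (1.70 to 1.88) and 1.37 (1.296 to 1.44), and the mice after 4 h differed by 1.07 times (1.03 to 1.12). The fitted log2 fold change was 0.92 ± 0.19 after 1 h (unadjusted p = 0.00347, adjusted p = 1), 0.89 ± 0.17 after 4 h (unadjusted p = 0.00238, adjusted p = 0.259) and 0.45 ± 0.19 after 8 h (unadjusted p = 0.0554) in edgeR. At 4 h it was 0.84 without mouse 1 and 0.94 without mouse 2. Between 4 h and 8 h Flna was lower by 0.44 on the log2 scale (unadjusted p = 0.0388, adjusted p = 0.551 in edgeR).

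Tagln2 (chr1:172500047-172507380, plus strand), a small actin-binding protein of the calponin family, was counted between 72 and 138 times a library. Its level was 3.62 normalized CPM in the control, 4.78 after 1 h, 8.20 and 5.34 after 4 h and 5.48 after 8 h. The interval of the ratio included 1 after 1 h (1.32, 0.953 to 1.84) and lay above 1 in mouse 1 (2.27), in mouse 2 (1.48, 1.08 to 2.03) and after 8 h (1.51, 1.10 to 2.08). The fitted values were 0.88 ± 0.43 after 4 h (adjusted p = 0.489) and 0.58 ± 0.49 after 8 h (adjusted p = 1) in edgeR.

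**Figure D3:**
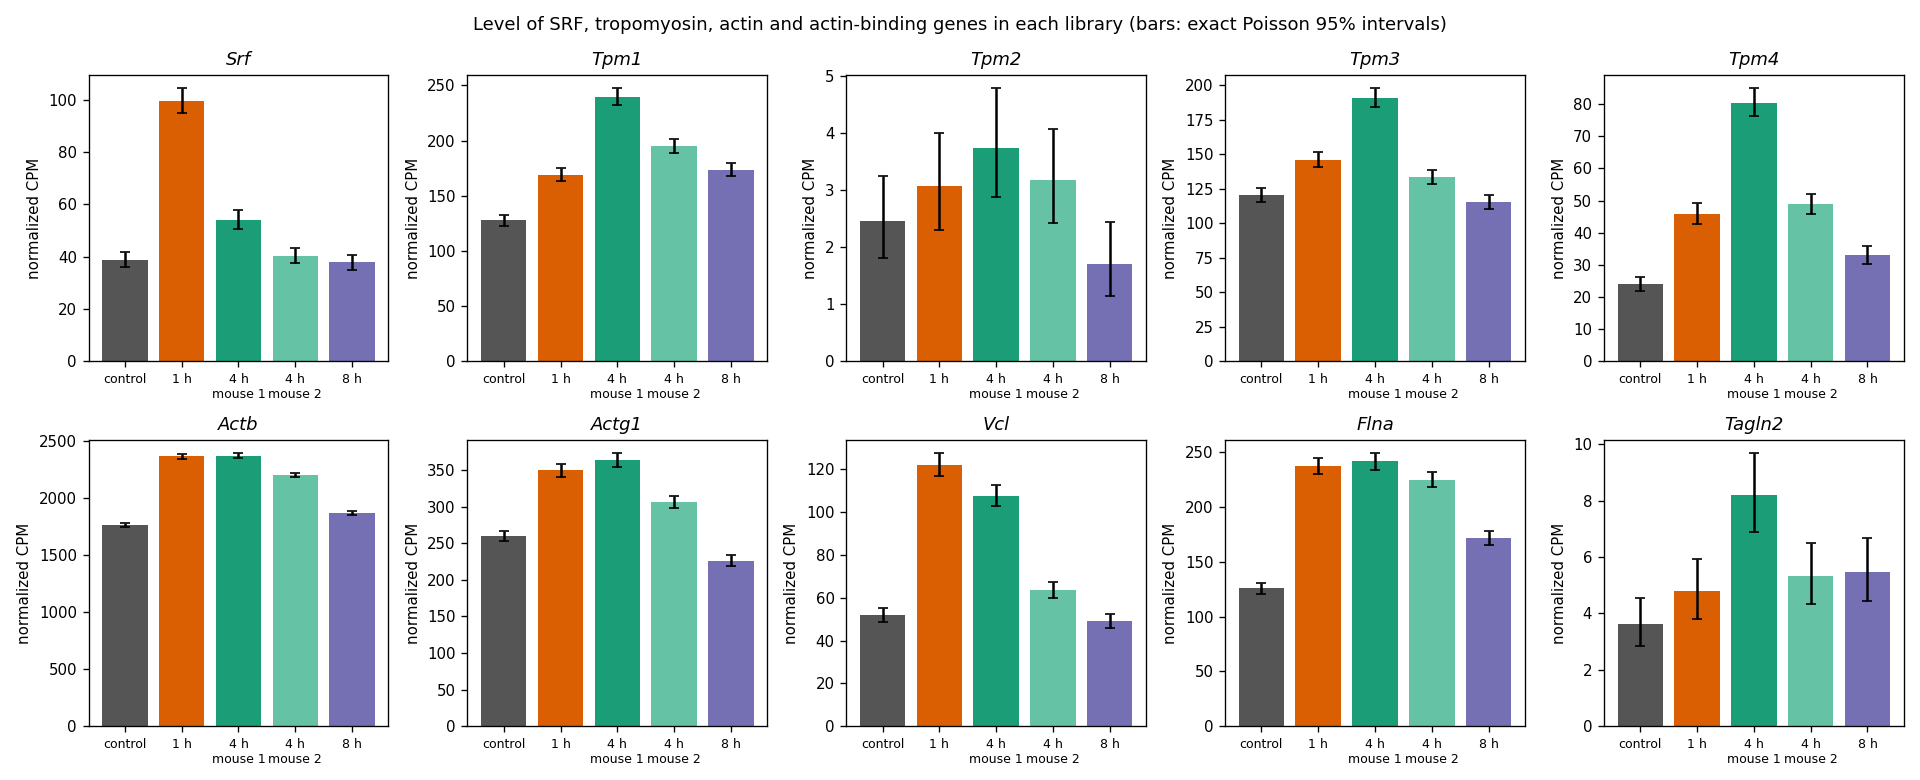
Normalized CPM (vertical axis, from 0) of each of the 10 genes in the control, 1 h, 4 h (mouse 1, mouse 2) and 8 h libraries, with exact Poisson 95% intervals of counting error as error bars. Srf and Vcl are highest after 1 h (99.5 and 122), the other 8 genes in mouse 1 after 4 h, and the wide intervals of Tpm2 and Tagln2 show their low counts.

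Compared per kb of exon in the control, Actb stood at 657.5 normalized CPM per kb and Actg1 at 97.6. Tpm3 (19.8, 19.0 to 20.6) and Tpm1 (19.7, 18.9 to 20.5) followed and did not differ beyond counting error, nor did Srf (13.4, 12.5 to 14.4) and Flna (13.4, 12.8 to 13.9). Tpm4 stood at 10.9, Vcl at 6.35, Tagln2 at 1.74 and Tpm2 at 0.846 (0.626 to 1.12). At 1 h the order differed. The level of Srf, 34.4 per kb, lay above those of Tpm1 (26.1), Flna (25.3) and Tpm3 (24.0). Flna, below Tpm3 in the control, had the higher value of the pair after 1 h, with intervals that overlapped (24.51 to 26.05 and 23.07 to 24.94).

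Taken by direction, both 4 h libraries were above the control for all 10 genes, against 38.1% of all tested genes. Mouse 1 was also above mouse 2 for all 10, against 51%. All 4 kainic acid libraries were above the control for Tpm1, Tpm4, Actb, Flna and Tagln2, 5 of 10 against 20.6%. The nearer 4 h library was further above the control than the pair differed for Tpm1, Tpm2, Tpm4, Actb and Flna, 5 of 10 against 21.2%. For Tpm2 the counting intervals of both quantities included 1. They were 0.869 to 1.92 for mouse 2 against the control and 0.815 to 1.71 for mouse 1 against mouse 2. From 4 h to 8 h all 10 fitted values were below 0, with a median of -0.47 beside -0.02 for all genes. The value of Tagln2 was 0.04 without mouse 1. This comparison uses the same 4 h libraries as that with the control, so the 2 are not independent. From 4 h to 8 h Tpm4, Actg1 and Flna passed an unadjusted p of 0.05, 3 of 10 against 5.32% of all genes. None of the 10 and no other gene (0%) was called there in edgeR after adjustment, where 1726 genes had an unadjusted p under 0.05, DESeq2 called 129 and limma-voom 0.

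The difference between the mice extended beyond these genes. The ratio of mouse 1 to mouse 2 was 1.69 for Vcl, 1.65 for Tpm4, 1.53 for Tagln2, 1.43 for Tpm3 and 1.34 for Srf, and between 1.07 and 1.23 for the other 5 genes, of which the interval included 1 only for Tpm2. Among the immediate early genes Fos stood at 519 normalized CPM in mouse 1 and 70.4 in mouse 2, and Egr3, named after its values were seen, at 115 and 99.8. Endothelial markers (4 genes) summed to 125 in mouse 1 and to between 70.8 and 88.1 in the other 4 libraries. In mouse 1 Flt1 stood at 70.2 (control 40.2), Cdh5 at 18.1 (5.33), Pecam1 at 23.0 (13.1) and Cldn5 at 13.7 (14.1). After 8 h Pecam1 stood at 26.2 (log2 value 0.99, unadjusted p = 0.0422 in edgeR). The part of these differences and of the choroid plexus content in the values of the 10 genes was not tested. In these bulk samples fewer cells of a type and less RNA per cell cannot be told apart.

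Several of these genes are abundant in vessel walls, glia and meninges, so markers of those cells were read beside them. The 10 markers of smooth muscle and pericytes summed to 184 normalized CPM in the control, 187 after 1 h, 178 and 188 after 4 h and 178 after 8 h, and none of them passed an unadjusted p of 0.05. The 4 astrocyte markers summed to 922 in the control, 1014 after 1 h, 1520 and 1355 after 4 h and 1356 after 8 h, with Gfap at 221, 272, 596, 510 and 587 in that order. After 4 h 3 of the 4 were higher at an unadjusted p under 0.05 in edgeR, against 7.21% of all genes. The median log2 value was 0.51, with Gfap at 1.32, Aqp4 at 0.55, Aldh1l1 at 0.46 and Slc1a3 at 0.26. After 8 h Gfap was at 1.41, Slc1a3 at 0.18, Aldh1l1 at 0.06 and Aqp4 at -0.05. Microglial markers (5 genes) summed to between 166 and 194, and of these P2ry12 stood at 31.9 in the control and at 13.9 and 17.8 after 4 h (log2 value -1.003, unadjusted p = 0.00853 in edgeR). After 4 h the log2 value was -0.38 for Cx3cr1, -0.05 for Csf1r and 0.41 for C1qa. Tmem119, named after its value was seen, was at -0.23. Sums lay for neuronal markers (4 genes) between 2234 and 2755, markers of hippocampal neurons (3 genes) between 462 in the control and 828 in mouse 1, oligodendrocyte markers (3 genes) between 2258 and 3612, and leptomeningeal markers (3 genes) between 27.7 and 55.2, the lowest after 1 h. Of the last list, Dcn had log2 values of -1.11 after 1 h (unadjusted p = 0.00447) and -0.83 after 8 h (unadjusted p = 0.0146) in edgeR. At the same times Lum was at -0.66 and -0.61, and Col1a1 at -0.48 and 0.60. Members of the neuronal lists lay on both sides of 0 after 4 h, with log2 values of 1.28 for Prox1 (unadjusted p = 0.00404), 0.80 for Gad1 (unadjusted p = 0.0164) and -0.53 for Rbfox3 (unadjusted p = 0.0177) in edgeR, and their part in the values of the 10 genes was not tested. No listed marker was at 0 in any library.

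The immediate early targets of SRF and TCF had larger median values than the 10 genes after 1 h and 4 h. Of 13 listed, 12 were higher after 1 h at an unadjusted p under 0.05 and none was lower, with a median log2 fold change of 4.03, against 2.1% of all genes higher. After 4 h 6 were higher (median 1.91), against 7.21%, and after 8 h 1 (median -0.05), against 2.39%, and none passed after adjustment at any time in edgeR. Arc, a synaptic protein gene, stood at 147.5 normalized CPM in the control, 2022 after 1 h, 2593 and 928 after 4 h and 152 after 8 h. Nr4a1, a nuclear receptor gene, stood at 33.8, 605, 163, 34.6 and 21.5 in the same order and Junb, an AP-1 subunit gene, at 26.3, 558, 161, 38.0 and 17.6. Mouse 2 was thus near the control for Nr4a1, as it was for Srf, but above it for Arc (928 against 147.5).

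The cytoskeletal targets of SRF and MRTF had median values nearer to those of the 10 genes. Of 23 listed, 4 were higher after 1 h at an unadjusted p under 0.05 (median log2 fold change 0.31), against 2.1% of all genes. After 4 h 6 were higher (median 0.45), against 7.21%, and after 8 h 2 (median 0.05), against 2.39%, while none was lower, and none passed after adjustment in edgeR. Myh9, the heavy chain of non-muscle myosin, stood at 172 normalized CPM in the control, 273 after 1 h, 408 and 302 after 4 h and 378 after 8 h, and its log2 values were 0.67, 1.04 and 1.13. Wdr1, which helps to take filaments apart, stood at 229, 316, 345.5, 364 and 260, Cfl1, the filament-severing cofilin, at 415, 514.5, 601, 527 and 423, and the calponin gene Cnn3 at 70.7, 75.1, 128, 109 and 89.9. Ccn1, a secreted matrix protein gene named after its value was seen, had the largest value of this list after 1 h, 5.18 on the log2 scale (1.81 normalized CPM in the control and 69.3 after 1 h).

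Among 10 other genes of the same families, Actc1 and Actg2 were below the filter and 8 were tested. Their median log2 fold changes were 0.15 after 1 h, 0.16 after 4 h and 0.17 after 8 h. The more abundant ones had small values, with Ctnna2 at 0.12, 0.09 and -0.39, and Ctnna1 at -0.13, 0.05 and -0.05. Tagln3, the neuronal transgelin, was at 0.08, 0.68 (unadjusted p = 0.0266 in edgeR) and 0.38. Flnc, a filamin gene best known from muscle and named after its values were seen, stood at 3.92 normalized CPM in the control, 10.6 after 1 h, 18.4 and 16.02 after 4 h and 15.0 after 8 h. Its log2 values of 1.42, 2.10 and 1.91 had unadjusted p = 0.00543, 0.000606 and 0.00141 in edgeR, none past adjustment.

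Of 22 genes whose products bind or turn over the same filaments, none was higher after 1 h at an unadjusted p under 0.05 (median log2 fold change 0.05), against 2.1% of all genes. After 4 h 7 were higher (median 0.25), against 7.21%, and after 8 h 1 (median 0.09), against 2.39%, and none was lower or passed after adjustment in edgeR. The 7 after 4 h were Cfl1, Dstn, Capza1, Arpc2, Arpc3, Actn1 and Actn4, named after their values were seen, with log2 values between 0.44 and 0.80. Of the 4 most abundant genes of the list, Tmod2, which caps filament ends, was at -0.06 after 4 h and the actin-monomer binder Pfn2 at -0.05. Tmsb4x, the monomer-sequestering thymosin, was at 0.32 and Cfl1 at 0.44.

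**Figure D4:**
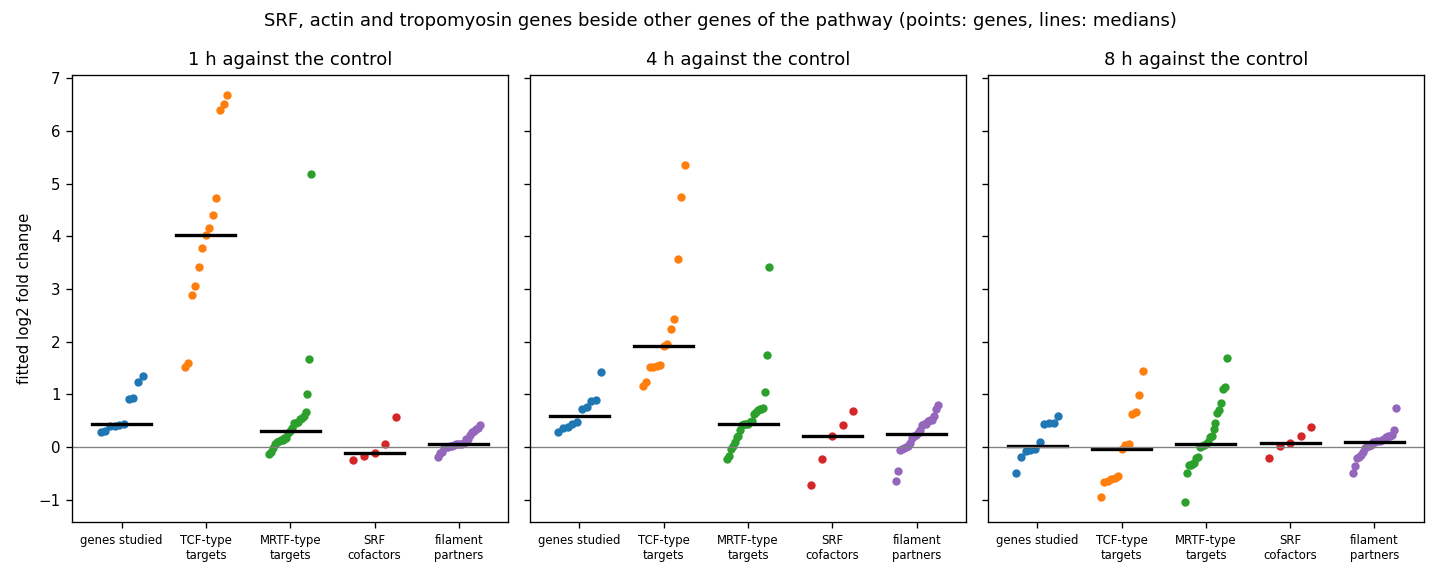
Fitted log2 fold change against the control (vertical axis) after 1 h, 4 h and 8 h for the 10 genes studied, TCF-type and MRTF-type SRF targets, SRF cofactors and actin filament partners; points are genes and black lines medians. At 1 h the TCF-type targets have a median of 4.03 and the genes studied 0.43, and after 8 h both medians lie near 0.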

How the data were processed

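The authors extracted total RNA, made TruSeq stranded libraries, sequenced paired ends and, per the labels, aligned reads with STAR 2.5.1b to GRCm38.p4. The deposited values are HTSeq counts of reads per gene, not normalized. Neither strand setting, annotation release nor HTSeq version is given in the sources used here. Lines of unassigned reads were left out of library sizes: reads on no gene were 24.7% to 33.1%, ambiguous reads 1.26% to 1.52% and reads aligned more than once 9.67% to 11.6%.

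Counts were fitted in R 4.3.3 with edgeR 4.0.16 (filterByExpr, TMM, quasi-likelihood test, 4 conditions, all 5 libraries, 1 residual degree of freedom), which gave a biological coefficient of variation of 0.238, and p-values were adjusted over all 19768 genes by Benjamini-Hochberg. p-values therefore measure the spread of the pair at 4 h, which may be technical, and of similar genes. Ratios of single libraries carry exact 95% intervals, which cover counting error only. Alternatives were DESeq2 1.42.0, limma-voom (limma 3.58.1), median-of-ratios size factors, library size alone, no filter, an assumed coefficient of variation of 0.2, and leaving out each 4 h library. The fit was also run on simulated data with changes at 4 h alone. That run does not cover the comparisons at 1 h and 8 h, and its outcome is not reported here.

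Positions and exon lengths came from GENCODE M21, which held 55144 of the 55385 identifiers in any version. The identifiers of Tpm4 and Flna matched in another version. Genes named in each list were the 4 with the highest mean level; the 5 nearest genes were named for Srf, Tpm1 and Tpm4, and others are marked in the text. The value of 1 such gene is not reported here. The genes, lists and tests were chosen with earlier results of these data known.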

Additional observations from a re-analysis of the deposited data

Results flagged for a closer look

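Actg1 was flagged because its libraries at 1 h and 4 h lay above the control and its 8 h library below. The 8 h library stood at 0.871 times the control (0.836 to 0.908), against 1.35 times at 1 h and 1.40 and 1.18 times in the 2 mice at 4 h. The difference between 8 h and 1 h was not tested. That between 8 h and 4 h was -0.57 on the log2 scale (unadjusted p = 0.0249, adjusted p = 0.532 in edgeR). Srf, Tpm2, Tpm3 and Vcl also had 8 h libraries below the control, with intervals that included 1. The 8 h and control conditions have 1 library each.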

How the results depend on the processing

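Among the values of the 10 genes under the alternatives, 343 kept their direction and, where an adjusted p was given, their side of the threshold, 12 passed it in addition and 5 turned. Values without a 4 h library have no adjusted p, nor has Tpm2 after 1 h and from 1 h to 4 h in DESeq2. The 12 were Tpm4 at 4 h under DESeq2, Tpm4 at 4 h with the biological coefficient of variation set to 0.2, and 10 values when no filter was applied. Without a filter, 3 of the 10 genes were called at 1 h (Srf, Vcl, Flna) and 4 at 4 h (Tpm1, Tpm4, Vcl, Flna). From 1 h to 4 h 1 was called (Srf) and from 4 h to 8 h 2 (Tpm4, Vcl). In the same order 285, 1300, 725 and 957 of all 32732 genes fitted without a filter were called. With DESeq2 and with the assumed coefficient 1 was called at 4 h, against 238 and 916 of all 19768 genes. The cause was not tested. Without mouse 1, the difference from 1 h to 4 h of Tpm3 turned to -0.128 (0.387 without mouse 2) and that from 4 h to 8 h of Tagln2 to 0.0353 (-0.572 without mouse 2). Without mouse 2, those from 1 h to 4 h of Actb, Actg1 and Flna turned to 0.00311, 0.0575 and 0.0231 (-0.103, -0.191 and -0.0794 without mouse 1). Without each 4 h library in turn, the number of genes with a fold of 1.5 at 4 h was 3 to 6, where both gave 5, and at 8 h it was 1 in place of 0 under median-of-ratios factors, library size alone, DESeq2 and limma-voom.

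Over all genes, the numbers called at 1 h, 4 h and 8 h, from 1 h to 4 h and from 4 h to 8 h were 57, 237, 22, 67 and 120 with library size alone, 56, 238, 33, 109 and 129 with DESeq2, 285, 1300, 279, 725 and 957 without a filter and 238, 916, 184, 513 and 660 with the assumed coefficient, and 0 in each with median-of-ratios factors and limma-voom. Library size alone put the median log2 value of all genes at -0.11 at 4 h and 0.12 from 4 h to 8 h, where TMM scaling gave 0.01 and -0.02, and turned no direction among the 10. No paired analysis was possible because only the 4 h condition has replicates. With 1 library at the control, 1 h and 8 h, precision there rests on the pair at 4 h, and counts under 100 limit Tpm2 in every library and Tagln2 in the control, 1 h and 8 h libraries.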
